A study of Mus musculus with 9 samples.

Results

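Genes of cholesterol synthesis and sterol regulation were examined in livers that lack miR-122, the most abundant microRNA of hepatocytes, and in control livers. The 27 members were chosen by name from 28 listed symbols, since Idol is an older name of Mylip, and they are 27 of the 30519 transcripts in the table. They comprise 18 enzymes, 4 regulators of the transcription factor SREBP2 and 5 genes of sterol transport, ubiquitin tagging and esterification. The livers came from mice aged 6 weeks: 4 miR-122 knockout animals (KO, 1 female and 3 males) and 5 floxed littermate controls (WT, 3 females and 2 males). The sources used here do not say how, or in which cells, the floxed allele was deleted in the KO animals, and miR-122 itself was not analysed here, so genotype rests on the labels. RNA from pulverised liver that had not been crosslinked was sequenced after polyA selection, and each gene is represented by 1 transcript. The values are normalised abundances, which kallisto and sleuth gave the authors.

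Cholesterol is built from acetyl-CoA by way of mevalonate, isoprenoid diphosphates, squalene and lanosterol, and the liver is a main site of this synthesis. When sterols in the endoplasmic reticulum are low, SCAP escorts SREBP2 to the Golgi, where proteases release the part that enters the nucleus and switches on nearly the whole enzyme set. When sterols are high, the INSIG proteins hold SCAP and SREBP2 back. Pharmacological and genetic loss of miR-122 in mice is known for lower plasma cholesterol and lower expression of cholesterol synthesis genes.

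The livers carried hepatocyte RNA in both genotypes. The summed abundance of 5 hepatocyte markers (Alb, Apoa1, Apob, Cps1 and Hnf4a) ranged from 43072 to 59840 in KO and from 37002 to 98765 in WT livers, and 1 of the 5, Apoa1, was called lower in KO. Alb, at 37940 to 54092 in KO and 29487 to 90015 in WT livers, made up most of that sum. Column totals ran from 0.711 to 0.869 M (mega) in KO and from 0.873 to 1.167 M in WT livers, so any scaling to equal totals raises KO values against WT values. WT replicate 3 carries a female label under a column name that says male. Its Ddx3y, a Y-linked gene, stood at 0.0422 against at least 13.2 in every male, and the label was kept. Markers of other cells moved with genotype: all 4 tested of 5 cholangiocyte genes (summed 558 to 932 in KO, 33.1 to 59.5 in WT), 5 of 6 stellate and fibroblast genes (228 to 269.9 and 109 to 199.6), 5 of 5 macrophage genes (139 to 172 and 86.7 to 119) and both tested of 4 neutrophil genes (54.1 to 120.1 and 11.2 to 59.4) were called higher in KO. Krt19, Sox9 and Epcam, with WT means below 1 (0.520, 0.582 and 0.885), and Des (0.957) reached the filter through the KO livers, and Spp1, at 547 to 918 in KO and 31.3 to 57.3 in WT livers, made up most of the cholangiocyte sum. Dcn, the stellate and fibroblast gene that was not called (168 ± 23.6 in KO, 131 ± 32.3 in WT livers), made up most of that list's sum. Of all tested transcripts 21.4% were called higher in KO. Of 5 endothelial genes 1, Cdh5, was called higher (list sums 52.6 to 66.9 in KO, 49.3 to 69.8 in WT). None of 5 lymphocyte genes reached the filter (2.84 to 3.64 and 1.30 to 2.76). Among males alone Apoa1, Sox9, Adgre1, Cdh5, S100a8 and S100a9 were not called (limma adjusted p = 0.12, 0.0507, 0.0697, 0.0817, 0.154 and 0.12). In the authors' deposited test q was 0.108 for Apoa1, 0.0667 for Krt19 and 0.0595 for Cdh5. Of all listed markers Ly6g is at 0 in 3 of 4 KO and 4 of 5 WT livers, and no marker is at 0 in all 9. The part of these cells in the sterol results was not tested, and in whole liver fewer cells of a type and less RNA per cell cannot be told apart.

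The enzymes of cholesterol synthesis were lower in KO livers. Of the 18 enzymes, 11 fell and none rose (limma, Benjamini-Hochberg adjusted p below 0.05 over 10950 transcripts), a share of 61.1% where 14.5% of all tested transcripts were called lower and 21.4% higher. With the other members included, 13 of 26 tested fell and none rose, and the authors' deposited test gave the same 13. The median log2 fold change of the tested members was -0.57, against 0.03 over all tested transcripts. Every KO liver lay below every WT liver for 9 of the 26 tested members, whereas 12.1% of all tested transcripts showed that separation. The size of the count depends on scaling: with every library brought to equal totals, 4 members remained called lower, and the median of all tested transcripts moved to 0.37. Relative to that median the members lay at -0.55 on equal totals and at -0.60 on the deposited scale.

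**Figure D1:**
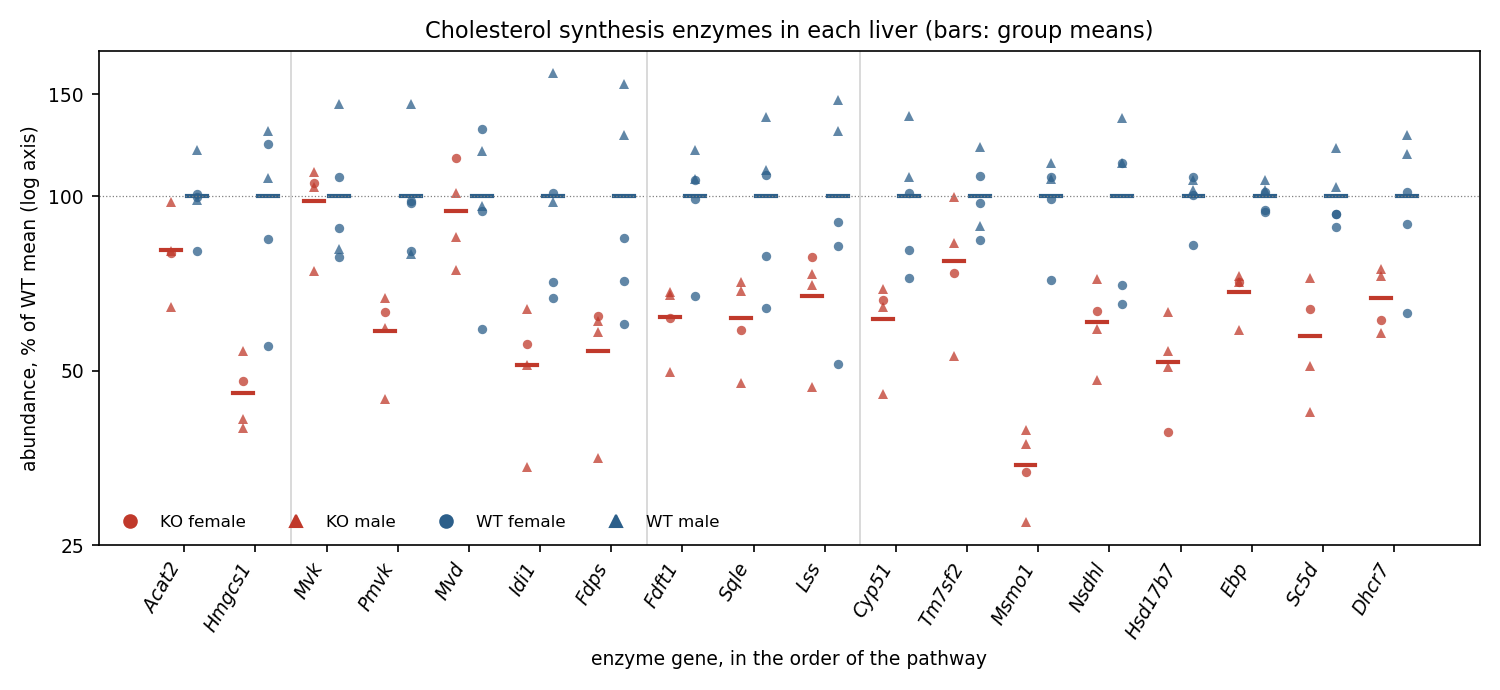
Abundance of 18 cholesterol synthesis enzymes in each liver as a percentage of the WT mean (log axis), in pathway order, with KO livers in red left of WT livers in blue, circles for females, triangles for males and bars for group means. KO livers lie lowest for Msmo1, at 34.5% of the WT mean. Every KO liver lies below every WT liver for 8 of the 18 enzymes, and the groups overlap for the others, Mvk and Mvd among them.

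The pathway opens with Acat2 and Hmgcs1. Acat2, the cytosolic thiolase that joins acetyl-CoA units, stood at 32.1, 32.3, 25.9 and 39.2 in KO livers and at 40.1, 40.5, 32.3, 39.6 and 48.2 in WT livers. These groups overlap, and the log2 fold change of -0.30 did not pass the test (95% interval -0.61 to -0.00093, unadjusted; limma adjusted p = 0.108). Its close copy Acat3, with which reads may be shared, averaged 174 ± 16.05 in KO and 171 ± 12.01 in WT livers (SD, n = 4 and 5). Hmgcs1, the HMG-CoA synthase, stood at 64.9, 55.9, 54.0 and 73.3 in KO livers, against 167, 114, 74.7, 146 and 175 in WT livers. Every KO liver was below every WT liver, although WT replicate 3 lay just above KO replicate 4. Hmgcs1 was 2.18-fold lower in KO (log2 fold change -1.06 ± 0.24 SE, limma adjusted p = 0.00669).

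Of the 5 enzymes between mevalonate and farnesyl diphosphate, 2 fell and 3 did not pass the test, and differences between the enzymes were not tested. Mvk, the mevalonate kinase, averaged 7.01 ± 1.15 in KO and 7.13 ± 1.94 in WT livers, and Mvd, the diphosphomevalonate decarboxylase, averaged 5.96 ± 1.166 in KO and 6.31 ± 1.75 in WT livers. Neither passed the test (limma adjusted p = 0.9896 and 0.865), and the 95% interval of the log2 difference ran from -0.39 to 0.38 for Mvk and from -0.49 to 0.39 for Mvd. Pmvk, the phosphomevalonate kinase that acts between them, stood at 19.6, 18.4, 13.9 and 20.8 in KO livers and at 30.5, 30.3, 24.99, 24.7 and 44.9 in WT livers. Its groups did not overlap, and it was 1.71-fold lower in KO (limma adjusted p = 0.0118; 0.0728 among males alone). Idi1, the isomerase of isopentenyl diphosphate, stood at 104, 95.1, 63.6 and 119 in KO livers, against 189, 132, 124, 182 and 303 in WT livers. It was 1.952-fold lower (limma adjusted p = 0.0249), and the call was lost without KO replicate 2 (0.0525) or KO replicate 3 (0.0724). Fdps, the farnesyl diphosphate synthase, stood at 86.2, 84.5, 49.1 and 80.9 in KO livers and at 118, 99.3, 83.5, 177 and 217 in WT livers. Fdps did not pass the test (log2 fold change -0.82 ± 0.29 SE, limma adjusted p = 0.0522). With sex as a covariate it was called (log2 fold change -0.99, adjusted p = 0.025).

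Squalene is made and closed into lanosterol by 3 enzymes, of which 2 fell. Fdft1, the squalene synthase, stood at 23.6, 26.2, 19.04 and 25.9 in KO livers, against 37.9, 40.8, 25.7, 46.1 and 40.9 in WT livers. WT replicate 3 alone lay within the KO range, and Fdft1 was 1.62-fold lower (limma adjusted p = 0.0121). Its annotated exons share 771 bases with Ctsb on the opposite strand, and whether the counting used strand was not stated by the submitters, so its value is uncertain. The same holds for other members with exon bases shared on the opposite strand: Scap shares 785, Hmgcs1 557, Lss 381, Idi1 323 and Cyp51 166. Fdps shares 945 of its 1237 bases with Gm43738 on the same strand, so its value is uncertain whether or not the counting used strand. Sqle, the squalene epoxidase, stood at 21.6, 25.3, 17.6 and 26.2 in KO livers and at 40.1, 29.1, 23.6, 40.8 and 50.5 in WT livers. Sqle was 1.62-fold lower (limma adjusted p = 0.04), with WT replicate 3 again inside the KO range, and its call was lost without any of 7 of the 9 livers (adjusted p up to 0.113). Lss, the lanosterol synthase, averaged 2.81 ± 0.588 in KO and 4.18 ± 1.59 in WT livers and did not pass the test (limma adjusted p = 0.208).

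Of the 8 late sterol enzymes 6 fell, and Msmo1 had the largest fold difference of the 26 tested members. Msmo1, which oxidises the methyl groups of sterols, stood at 42.5, 50.4, 35.0 and 47.6 in KO livers and at 126, 137, 91.2, 146 and 137 in WT livers. The lowest WT liver was well above the highest KO liver, and Msmo1 was 2.90-fold lower (log2 fold change -1.51 ± 0.15 SE, limma adjusted p = 8.53e-05). Hsd17b7, a sterol ketoreductase of the same demethylation complex, stood at 9.505, 15.3, 13.1 and 12.3 in KO livers, against 24.4, 26.2, 19.999, 24.9 and 25.9 in WT livers. It was 1.93-fold lower without overlap (log2 fold change -0.91 ± 0.13 SE, limma adjusted p = 0.000662). Nsdhl, the dehydrogenase that works beside them, averaged 26.1 ± 4.27 in KO and 43.0 ± 13.3 in WT livers, with WT replicates 2 and 3 at 30.3 and 28.01, below KO replicate 4 at 31.0. Nsdhl was 1.65-fold lower (limma adjusted p = 0.0456), and its call was lost without any of 7 of the 9 livers (adjusted p up to 0.124). For Sqle and Nsdhl the 7 are all but WT replicates 2 and 3.

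Sc5d, a sterol desaturase, stood at 105, 83.4, 69.5 and 119 in KO livers and at 145, 152, 153, 198 and 170.1 in WT livers. The groups did not overlap, and Sc5d was 1.74-fold lower (log2 fold change -0.81 ± 0.16 SE, limma adjusted p = 0.00345). Ebp, a sterol isomerase, was the steadiest of the 18 enzymes in WT livers, with a coefficient of variation of 5.40%. It averaged 51.3 ± 4.84 in KO and 74.99 ± 4.05 in WT livers, 1.46-fold lower without overlap (limma adjusted p = 0.000917). Cyp51, the lanosterol demethylase, averaged 40.5 ± 7.09 in KO and 65.9 ± 16.9 in WT livers and was 1.63-fold lower, again without overlap (limma adjusted p = 0.0227; 0.0658 without KO replicate 3). Dhcr7, which reduces dehydrocholesterol to cholesterol, averaged 15.5 ± 1.93 in KO and 23.2 ± 5.90 in WT livers, and Tm7sf2, a sterol reductase, averaged 51.7 ± 13.04 in KO and 66.8 ± 10.1 in WT livers. Dhcr7 just missed the threshold (limma adjusted p = 0.0527; 0.00558 without WT replicate 3), and Tm7sf2 was further from it (0.118).

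Sequence upstream of the genes was examined because so many of them fell together. RefSeq windows (GRCm38.p6) from 250 bases before to 50 bases after the start were at hand for 21 members, some with more than 1 start. A gene was counted where any of its windows held the word. The sterol regulatory element TCACNCCAC, searched on both strands, occurred in 1 of the 21, Hmgcs1, and in 1.52% of 8098 genes tested between the genotypes. The CCAAT box, bound by NF-Y, which works with SREBP at many sterol promoters, occurred in 19 of 21 (90.5%) and in 43.4% of the tested genes. The Sp1 box GGGCGG occurred in 90.5% of the members and in 67.7% of the tested genes. CCAAT was present in members that fell and in members without a call such as Mvk, which holds 5, and Scap, which fell, holds none. Windows were not matched to the counted transcripts: those of Pmvk and Insig2 with CCAAT lie upstream of the counted transcript's start, and their other windows hold none. These are matches of letters, not bound sites. The windows of the called genes Msmo1 (chr8:64733529-64733828, minus strand), Hsd17b7 (chr1:169969156-169969455, minus strand) and Hmgcs1 (chr13:119690101-119690400, plus strand) are shown, with CCAAT boxes on either strand and the sterol element in capitals, which do not overlap in these windows.
Msmo1: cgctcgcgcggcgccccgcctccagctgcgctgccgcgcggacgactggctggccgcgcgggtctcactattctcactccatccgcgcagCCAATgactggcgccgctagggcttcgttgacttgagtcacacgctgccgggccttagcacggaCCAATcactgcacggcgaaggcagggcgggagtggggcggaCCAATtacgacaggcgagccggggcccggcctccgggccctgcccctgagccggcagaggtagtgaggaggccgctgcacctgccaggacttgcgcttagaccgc
Hsd17b7: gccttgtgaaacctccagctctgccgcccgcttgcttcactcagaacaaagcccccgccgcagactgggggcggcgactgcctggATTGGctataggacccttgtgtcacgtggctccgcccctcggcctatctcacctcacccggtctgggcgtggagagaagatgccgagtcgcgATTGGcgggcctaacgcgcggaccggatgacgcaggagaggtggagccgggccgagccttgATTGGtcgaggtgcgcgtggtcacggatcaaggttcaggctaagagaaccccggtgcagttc
Hmgcs1: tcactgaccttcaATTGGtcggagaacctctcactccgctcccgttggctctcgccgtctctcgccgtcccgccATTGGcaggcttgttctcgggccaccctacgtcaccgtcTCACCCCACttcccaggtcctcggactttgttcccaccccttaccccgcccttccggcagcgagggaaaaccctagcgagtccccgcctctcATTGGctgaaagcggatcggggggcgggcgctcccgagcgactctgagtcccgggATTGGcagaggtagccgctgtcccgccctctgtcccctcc

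Seen in capitals, Msmo1 has 3 CCAAT boxes in the forward sense, at -160, -96 and -55 from the start, and Hsd17b7 has 3 in the reverse sense, at -165, -73 and -12. In Hmgcs1 the sterol element TCACCCCAC lies at -137, between reverse CCAAT boxes at -176 and -45.

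Of the 4 regulators 1, Scap, fell, and all 4 had log2 fold changes below 0. Srebf2, the gene of SREBP2 itself, stood at 8.46, 9.79, 8.64 and 6.87 in KO livers, against 10.8, 10.6, 8.81, 7.97 and 9.05 in WT livers. These ranges overlap and the difference did not pass the test (log2 fold change -0.15, 95% interval -0.41 to 0.11, limma adjusted p = 0.351). Scap, the sterol sensor that escorts SREBP2, stood at 17.04, 21.2, 19.4 and 17.2 in KO livers and at 30.2, 29.9, 23.96, 29.3 and 21.1 in WT livers. Scap fell 1.44-fold (log2 fold change -0.49 ± 0.12 SE, limma adjusted p = 0.012), but was not called among males alone (0.188), where WT replicate 5 lay within the KO range. Insig1, the sterol-induced retention protein, stood at 115.5 in the KO female, at 69.6, 50.2 and 63.4 in KO males, at 95.7, 158 and 91.7 in WT females and at 151 and 106 in WT males. It missed the threshold over all livers (log2 fold change -0.71 ± 0.25 SE, limma adjusted p = 0.0516) and passed it among males alone (log2 fold change -1.05, adjusted p = 0.0209). The KO female was the highest KO liver for Insig1, and with 1 KO female the effect in females has no replicate. Insig2, the second retention protein, whose liver transcript falls when insulin is high, averaged 187 ± 35.2 in KO and 198 ± 29.4 in WT livers (limma adjusted p = 0.671).

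**Figure D2:**
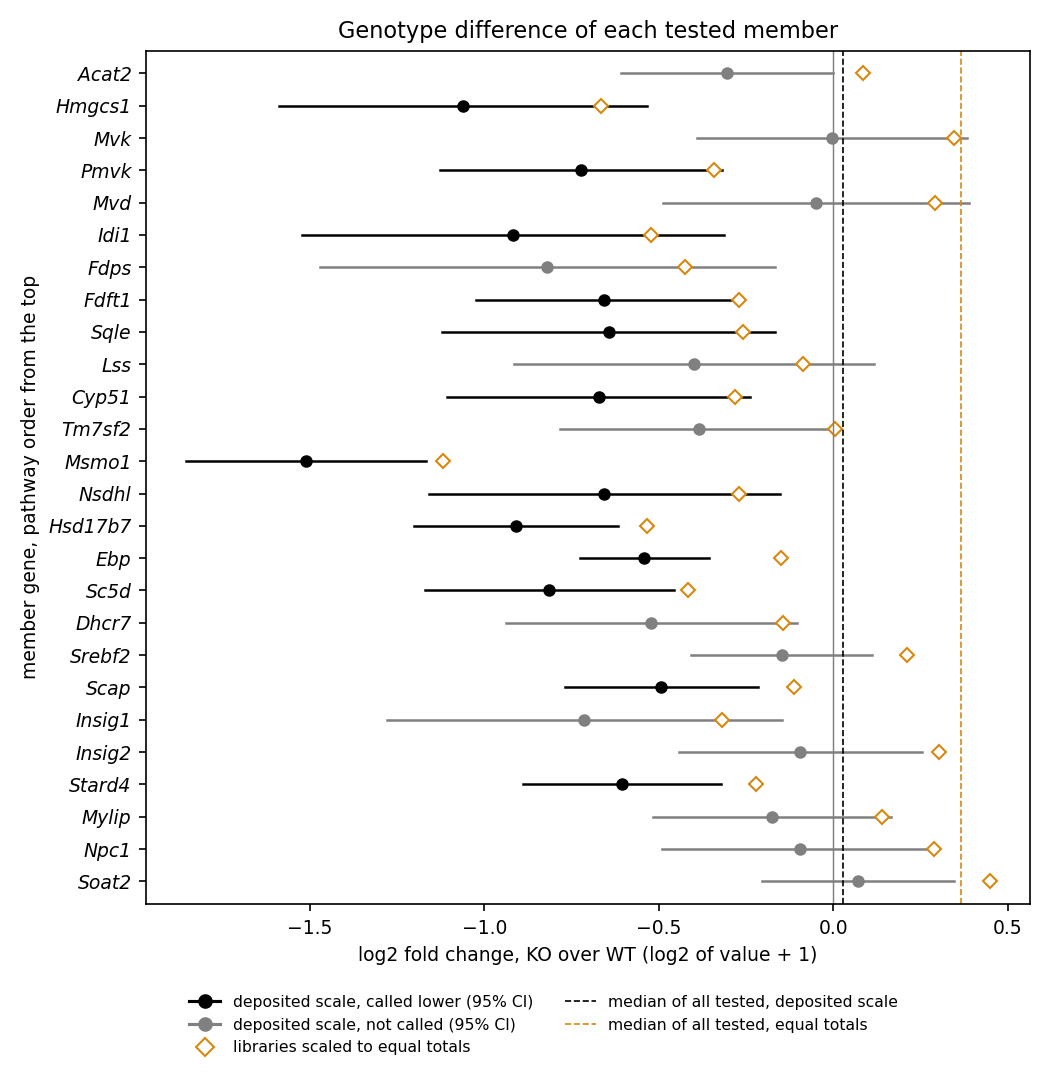
Log2 fold change of each of 26 tested members, KO over WT, in pathway order from the top, with 95% intervals on the deposited scale (black where called lower, grey where not) and open diamonds for libraries scaled to equal totals; dashed lines give the medians of all tested transcripts. Each diamond lies to the right of its gene's filled point, Msmo1 is furthest left at -1.51, and Soat2 at 0.07 is the only filled point above 0.

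Among genes of sterol transport, ubiquitin tagging and esterification, 1 of 4 tested members fell. Stard4, a soluble protein that carries cholesterol between membranes, stood at 23.2, 23.2, 18.9 and 20.4 in KO livers, against 35.2, 33.5, 27.1, 41.7 and 29.1 in WT livers. Its groups did not overlap, and it was 1.56-fold lower (log2 fold change -0.61 ± 0.13 SE, limma adjusted p = 0.00497). Mylip, also called Idol, a ubiquitin ligase for lipoprotein receptors, averaged 3.79 ± 0.284 in KO and 4.5002 ± 1.14 in WT livers. Npc1, which exports cholesterol from lysosomes, averaged 27.2 ± 2.99 in KO and 29.7 ± 7.32 in WT livers, and Soat2, which esterifies cholesterol, averaged 18.2 ± 1.88 in KO and 17.4 ± 2.74 in WT livers. None of these 3 passed the test (limma adjusted p = 0.399, 0.704 and 0.688), and their 95% intervals lay within -0.52 and 0.35 on the log2 scale. Exons of Npc1 share 511 bases with Rmc1 on the opposite strand.

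Npc1l1, the protein through which sterols enter cells, which mice make mainly in the intestine and humans also in the liver, showed the opposite pattern. It stood at 1.89, 1.89, 1.37 and 1.86 in KO livers, against 0.0134 in WT replicate 1 and a listed value of 0 in the other 4 WT livers. All KO livers were above all WT livers (exact two-sided permutation test over 9 livers, unadjusted p = 0.00794, the smallest this design allows). The share of all transcripts that separate in this direction was not counted, so this separation has no background. The 21.4% of tested transcripts called higher in KO is a different measure, taken only above the filter. It was the only member below the filter of a mean of 1, so it carries no limma call on all livers, and no fold is given against values listed at 0. Its limma calls among males alone and with no filter are listed only among the alternatives below. They are not read as a result, since its mean came from the KO livers. Npc1l1 was 1 of 4 transcripts in the table with at least 1 in every KO liver and at most 0.02 in every WT liver. The others were Guca2b, Mgst2 and Rasal1, which were found by this pattern after their values were seen. The bounds were set with the values of Npc1l1 known, so its own place among the 4 was fixed in advance.

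**Figure D3:**
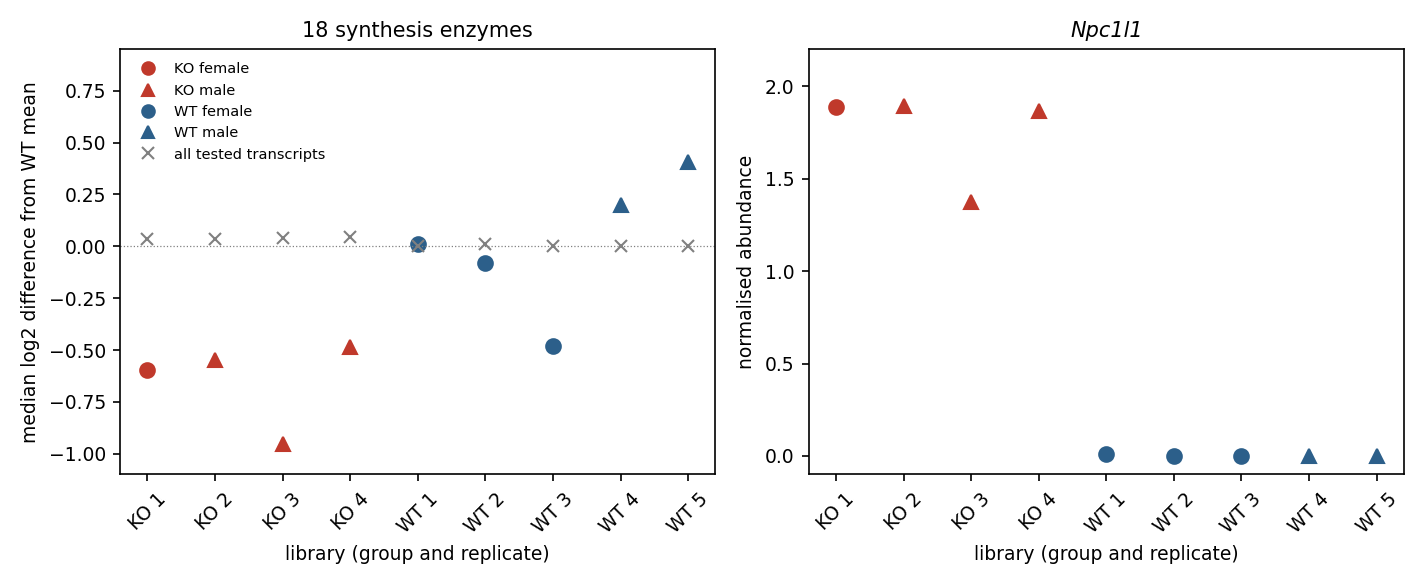
Left, median log2 difference of 18 enzymes from the WT mean in each library (coloured) beside the same median over all tested transcripts (grey crosses); right, normalised abundance of Npc1l1 in each library, with KO libraries left of WT libraries in both. The KO libraries span -0.95 to -0.48 and the WT libraries -0.48 to 0.41 for the enzymes, and Npc1l1 lies at 1.37 or above in KO and at or near 0 in WT.

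Within each genotype 1 liver was the lowest for most enzymes. As a description, the median log2 difference of the 18 enzymes from their WT means was -0.60, -0.55, -0.95 and -0.48 in the KO livers and 0.01, -0.08, -0.48, 0.20 and 0.41 in the WT livers. The same median over all tested transcripts was 0.04 in each KO liver and at most 0.01 from 0 in the WT livers. KO replicate 3 was the lowest KO liver for 16 of 18 enzymes, and WT replicate 3 was the lowest WT liver for 15. Hsd17b7 was an exception, lowest in KO replicate 1 (9.505). WT replicate 3 lay below the highest KO liver for 10 enzymes, and every KO liver lay below the other 4 WT livers for 14. For that last count WT replicate 3 was set aside after it was seen to be the lowest. Without WT replicate 3, 14 enzymes and 17 members were called lower. Without KO replicate 3, 7 enzymes and 9 members were. The shares of all transcripts that separate so, or are called lower in these fits, are not given here, so these counts have no background. The coefficient of variation over WT livers had a median of 25.97% and ran from 5.40% for Ebp to 40.4% for Fdps, and its median over KO livers was 17.1%.

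Sex was unevenly spread over the genotypes. Mean abundance was higher in WT males than in WT females for all 18 enzymes, by a median ratio of 1.24 and by 1.96 for Fdps, and both WT males lay above all 3 WT females for 8 of them. The KO female lay within the range of the KO males for 14 enzymes. The KO female was below every WT female for 14 enzymes, and every KO male was below both WT males for 15. The shares of all tested transcripts that separate in these ways, or between WT males and WT females, were not counted. With so few livers per comparison full separation is easily reached, so these counts describe the enzymes only. With sex as a covariate 13 enzymes and 15 members were called lower, and among males alone 13 enzymes and 15 members. The shares of all transcripts called lower in these fits are not given here. The difference between the sexes itself was not tested.

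Other genes of sterol metabolism were compared in the same fit, 45 genes in 5 lists. Of 43 tested, 6 fell and 4 rose, against backgrounds of 14.5% and 21.4%. Among 6 further reported SREBP targets 3 fell, with a list median of -0.47. Acss2, which makes acetyl-CoA from acetate, stood at 14.4, 15.4, 11.9 and 18.9 in KO livers, against 49.3, 61.6, 43.0, 51.4 and 48.0 in WT livers. That 3.35-fold difference exceeds that of any of the 26 tested members (log2 fold change -1.69 ± 0.14 SE, limma adjusted p = 2.08e-05) and stayed called on equal totals. Tmem97, a membrane protein that binds NPC1, averaged 44.3 ± 8.27 in KO and 63.8 ± 4.62 in WT livers (limma adjusted p = 0.00628), and Pcyt2, of phosphatidylethanolamine synthesis, averaged 83.9 ± 8.05 in KO and 105.8 ± 6.57 in WT livers (0.0129). Both lost their calls on equal totals, where Pcyt2 turned to 0.06, and among males alone (limma adjusted p = 0.0987 and 0.0895). Aacs, Rdh11 and Lpin1 did not pass the test.

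Of 10 genes in the isoprenoid branch, which leads from farnesyl diphosphate to prenyl groups, dolichol and ubiquinone, 1 rose and none fell. Ggps1, the geranylgeranyl diphosphate synthase, stood at 6.48, 6.89, 7.39 and 6.72 in KO livers, against 3.902, 2.96, 3.95, 3.68 and 3.68 in WT livers. It was 1.89-fold higher without overlap (log2 fold change 0.77 ± 0.09 SE, limma adjusted p = 0.000161). Of 10 genes of SREBP processing and sterol-regulated degradation, Erlin2, a subunit of an endoplasmic reticulum complex for degradation, rose 2.15-fold (21.5 ± 1.29 in KO against 9.98 ± 1.06 in WT livers, limma adjusted p = 2.82e-05). Both SREBP proteases, Mbtps1 and Mbtps2, lay within 0.04 of no change on the log2 scale as deposited. On equal totals they lay at 0.37 and 0.35 (limma adjusted p = 0.0636 and 0.0365), so Mbtps2 was called higher there. The median of all tested transcripts on equal totals was 0.37.

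Of 12 tested genes of sterol transport and storage 2 fell, Gramd1c (9.14 ± 1.48 in KO against 14.5 ± 1.99 in WT, limma adjusted p = 0.00551) and Stard5 (41.7 ± 2.91 in KO against 52.5 ± 7.72 in WT livers, 0.0456). Both calls were lost on equal totals and among males alone (limma adjusted p = 0.16 and 0.0636). That of Stard5 was also lost without any of 8 of the 9 livers (all but WT replicate 1). Of 5 genes of sterol efflux and the liver X receptors 2 rose. Nr1h2, the receptor LXR-beta, stood at 8.88, 9.28, 11.1 and 8.18 in KO livers, against 6.28, 5.55, 2.27, 4.30 and 4.13 in WT livers, 2.08-fold higher (limma adjusted p = 0.00646), whereas the authors' deposited table gives it a q of 0.459. Abcg1, a sterol exporter, averaged 1.96 ± 0.149 in KO and 1.34 ± 0.256 in WT livers (limma adjusted p = 0.0334; q = 0.0777 in the authors' deposited table). Its call was lost without any of 6 livers (KO replicates 1 to 4, WT replicates 1 and 3; adjusted p up to 0.0855) and among males alone (0.202). The biliary sterol exporters Abcg5 (36.2 ± 3.40 in KO, 50.2 ± 17.9 in WT) and Abcg8 (16.7 ± 1.56 in KO, 23.5 ± 7.84 in WT) did not pass the test.

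**Figure D4:**
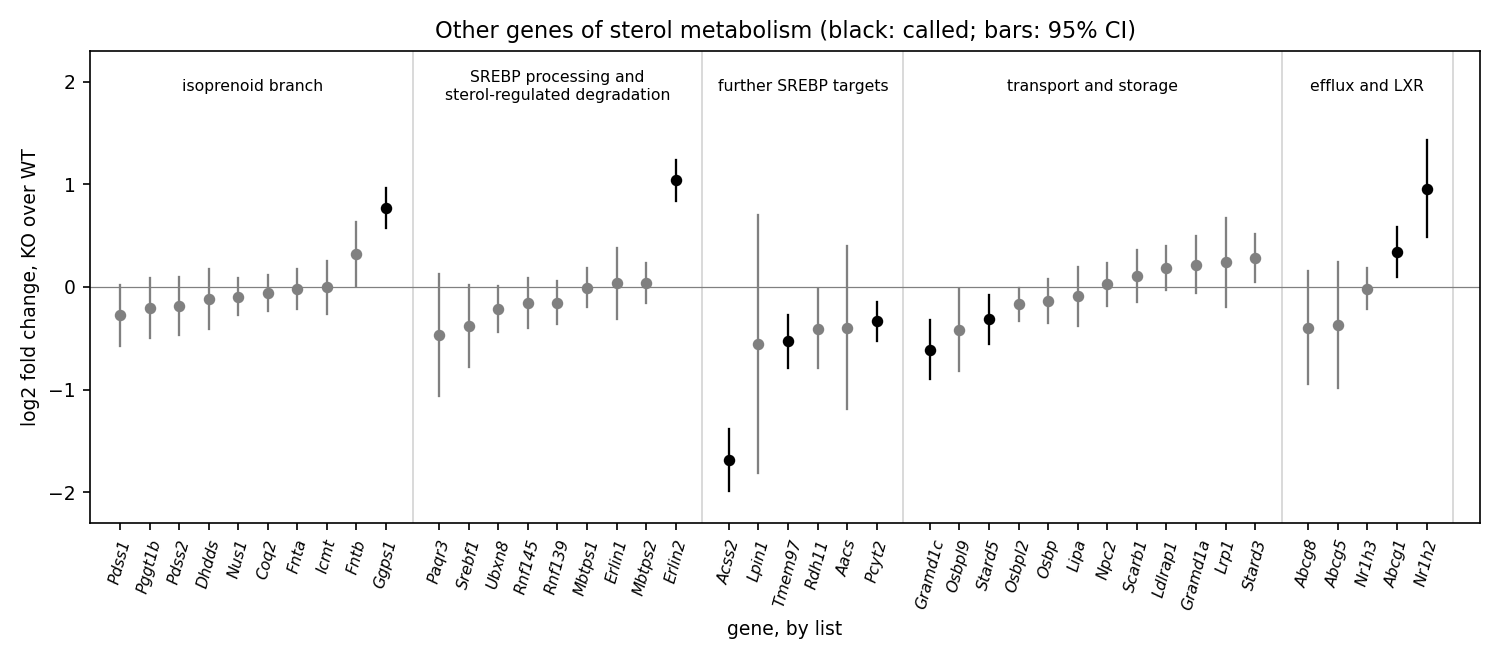
Log2 fold change, KO over WT, of 42 of the 43 tested genes in 5 further lists of sterol metabolism, ordered by value within each list, with 95% intervals; black marks called genes. Acss2 lies lowest at -1.69, and Erlin2, Nr1h2 and Ggps1 lie highest at 1.04, 0.96 and 0.77.

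Sites for miR-122 were searched in the annotated 3' UTRs of the members' transcripts (GENCODE M21, GRCm38), since a microRNA acts mainly through pairing of its seed with such sites. Of 27 members, 4 held a 7mer site (14.8%) and none an 8mer, beside 12.7% of 18406 transcripts with a 7mer or an 8mer. The words searched were ACACTCCA (8mer), ACACTCC (7mer-m8) and CACTCCA (7mer-A1). The 4 sites are shown with the matched bases in capitals, since they are the only places where the members' 3' UTRs hold such a word. Of these genes Cyp51 fell and the others were not called. The site of Cyp51 is at chr5:4082141-4082147 (minus strand), that of Insig1 at chr5:28077587-28077593 (plus strand), that of Mvd at chr8:122433863-122433869 (minus strand) and that of Mylip at chr13:45411422-45411428 (plus strand).
Cyp51: gcaagactaacACACTCCccaaaataaa
Insig1: ttgtgtctctgtCACTCCAgggtggaga
Mvd: tggaccttccagCACTCCAgacagctgc
Mylip: ttcccaagcactCACTCCAgctgcaccc

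Npc1l1, the member higher in all KO livers, holds no such word in its 3' UTR of 445 bases.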

How the data were processed

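Livers were assigned to KO or WT from the sample titles. Kallisto, sleuth and mm10 are named per the submitters' processing notes, without versions or filters in the sources used here. The table's per-library columns are a normalised signal deposited by the authors, 1 transcript per gene: their totals differ between libraries, so they are not TPM, and the reads behind each value were not analysed here. The deposited p-values and q-values are the authors' sleuth test. Its deposited coefficient is on a natural log scale as WT minus KO, and was negated and converted to log2. The variance columns, deposited scores of the sleuth model, were not used.

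The test was limma 3.58.1 in R 4.3.3 on log2(value + 1), for transcripts averaging at least 1 across the 9 libraries, with genotype as the only term and a variance trend, with Benjamini-Hochberg adjustment at 0.05 over 10950 transcripts. Fold changes on this scale understate low transcripts; printed folds are instead ratios of group means, and errors are SD over livers. Npc1l1, below the filter, had an exact permutation test. The fit was tested on simulated data. Members and gene lists were chosen with earlier results of these data known; of the other lists, up to 4 called genes per direction with the smallest adjusted p were named. Exon overlaps and 3' UTRs come from GENCODE M21, promoters from RefSeq. Coordinates are 1-based.

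Alternatives were pseudocounts of 0.5 and 0.1, no filter or a mean of 5, equal totals, median ratio scaling, no trend, sex as a covariate, males alone, a replicate block, the authors' test, each library left out, a narrower motif and a shorter seed word. miR-122 itself was not analysed here. A called gene of the SREBP processing list, counted in the totals, is not reported here.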

Additional observations from a re-analysis of the deposited data

Results flagged for a closer look

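Among 54 groups of 4 or 5 livers examined for the 27 members, 6 held a liver far from the rest of its group, and chance flags about 1 in 20 such groups. KO replicate 3 was far below the other KO livers for Fdps (49.1), Ebp (44.1) and Npc1l1 (1.37). WT replicate 5 was far above the other WT livers for Pmvk (44.9). KO replicate 4 was far below the other KO livers for Mylip (3.37). WT replicate 1 was the 1 WT liver with a value for Npc1l1 above 0 (0.0134).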

How the results depend on the processing

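Over 20 alternatives, 13 called members kept a log2 fold change below 0. Hmgcs1, Msmo1, Hsd17b7 and Sc5d kept their calls in every alternative. No member that changed sign was called in the new direction.

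With equal totals, 4 members (4 enzymes) were called lower, all transcripts gave 301 lower and 5030 higher, the other sterol genes gave 1 lower and 14 higher, and the medians were -0.19 for members and 0.37 for all. There the log2 fold changes of Acat2 (0.084), Mvk (0.35), Mvd (0.29), Tm7sf2 (0.0061), Srebf2 (0.21), Insig2 (0.30), Mylip (0.14) and Npc1 (0.29) were above 0. Among males alone, 1 member (Npc1l1) was higher, having reached the filter through the KO livers only, all transcripts gave 843 lower and 1493 higher, 3 other sterol genes were lower, the medians were -0.81 and 0.039, and Insig2 (0.045), Mylip (0.11) and Npc1 (0.24) were above 0. A mean of at least 5 gave 1231 higher calls and a median of -0.040 over all transcripts. That median was -0.012 with median ratio scaling and 0.059 in the authors' test. With no filter 1 member (Npc1l1) was higher, a call that again rests on the KO livers only. Sqle (0.0677) and Nsdhl (0.0767) lost their limma calls with no filter. The causes were not tested.

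Leaving out 1 library gave 7 to 14 enzymes and 9 to 17 members called lower and none higher, without the shares of all transcripts beside them. Log2 fold changes ran from -0.16 to 0.055 for Insig2, -0.20 to 0.045 for Mvd, -0.071 to 0.12 for Mvk, -0.23 to 0.0011 for Npc1 and -0.018 to 0.13 for Soat2. Sqle and Nsdhl lost their calls without any of 7 libraries, all but WT replicates 2 and 3.

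A replicate block over numbers 1 to 4 of both genotypes, without WT replicate 5, called 15 members lower. The share of all transcripts called lower there is not given. Mvk (0.12) and Soat2 (-0.018) changed sign. Deviations of same-numbered livers correlated at 0.23, 0.08, -0.18 and 0.11 across genes, and 1 of 4 KO livers matched its own number best. These correlations can neither establish nor exclude that the numbers pair the livers. The narrower sterol word TCACCCCAC gave 1 member, and adding the 6mer gave 6 members with a seed site.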
